A study of Bos taurus with 18 samples.

Results

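The genes described here are 5 that neutrophils and other myeloid cells use in antimicrobial defence: S100A8 (ENSBTAG00000012640), S100A9 (ENSBTAG00000006505), S100A12 (ENSBTAG00000012638), LTF (ENSBTAG00000001292) and HP (ENSBTAG00000006354). They were chosen by name, with their identifiers given beside the symbols, and all 5 were found among the 30162 features of the count table. Leukocyte RNA had been sequenced from 18 female cattle under heat stress, 6 of the Red Angus breed (Bos taurus), 6 of the Droughtmaster breed (developed in Australia for the tropics from Bos indicus and Bos taurus cattle) and 6 F1 hybrids of the 2 breeds, labelled Red Angus x Droughtmaster and called F1 or hybrids here. Every animal carried the heat stress label, so the comparisons are between breeds within that condition. The labels give separate names to the animals but no ages, parentage, batch or white cell counts, and the sample was the white cell layer of centrifuged EDTA blood, a mixture of cell types.

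S100A8 and S100A9 encode small calcium-binding proteins that pair to form calprotectin, which binds zinc and manganese and is among the most abundant proteins of the neutrophil cytosol. S100A12 encodes a related calgranulin that binds the receptor RAGE, and in the RefSeq gene table (assembly ARS-UCD2.0) it lies between S100A8 and S100A9 with no other gene among them. LTF encodes lactoferrin, an iron-binding protein of the secondary granules, which is transcribed mainly while neutrophils mature in the bone marrow. HP encodes haptoglobin, which binds free haemoglobin, is made mainly by the liver in the acute phase response and is used in cattle as a marker of inflammation.

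Libraries held 11639027 to 24117615 counts, and 14446 features, all 5 genes among them, passed the filter on low counts. Levels are given as CPM (read counts relative to library size), scaled between libraries by the TMM method, which corrects for differences in library composition. The number of features with at least 1 count ranged from 15507 in F1 replicate 2 to 19605 in Droughtmaster replicate 6. Droughtmaster replicate 3 stood apart because 1 feature took 44.6% of its counts, against at most 4.03% for the top feature of any other library. Its TMM factor was therefore low (0.424), and it had the highest CPM of S100A8, S100A9, S100A12 and LTF. As a share of all its counts, that feature included, its S100A8 (0.0183%) was the lowest of the Droughtmaster libraries. Its S100A9 (0.0535%) and S100A12 (0.0659%) were not the highest on that measure, while its LTF was. Breed differences are also given without this library. The deposited table names features by identifier only, and 0 identifiers matched the RefSeq table. Marker genes of neutrophils, lymphocytes and other blood cells could therefore not be looked up, and the cell type label was not checked against them. In such bulk RNA, fewer cells of a type and less RNA per cell cannot be told apart.

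S100A8 was higher in most Droughtmaster libraries than in the other breeds, with some overlap. Its lowest, median and highest levels were 32.5, 94.7 and 154 CPM in Red Angus, 40.2, 74.5 and 208 CPM in the hybrids, and 138, 289 and 432 CPM in Droughtmaster. Of the 6 Droughtmaster libraries, 5 exceeded every Red Angus library, and Droughtmaster replicate 6 lay within the Red Angus range. The mean was 284 ± 112 CPM in Droughtmaster, 94.9 ± 51.5 CPM in Red Angus and 97.4 ± 65.4 CPM in the hybrids (SD, n = 6 each).

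S100A9, the partner of S100A8, also had its highest median in Droughtmaster, with more overlap. Its lowest, median and highest levels were 58.3, 192 and 482 CPM in Red Angus, 69.0, 160 and 414 CPM in the hybrids, and 215, 516 and 1266 CPM in Droughtmaster. Of the Droughtmaster libraries, 3 exceeded every Red Angus library and none lay below all of them. Droughtmaster replicate 3 held the highest value.

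S100A12 varied most between animals among the 3 calgranulins. It ranged from 45.7 to 496.7 CPM in Red Angus (median 302 CPM), from 38.9 to 616 CPM in the hybrids (median 290 CPM) and from 174 to 1558 CPM in Droughtmaster (median 636 CPM). Within 1 breed the highest library stood 10.9-fold above the lowest in Red Angus, 15.8-fold in the hybrids and 8.96-fold in Droughtmaster. The groups overlapped, with Droughtmaster replicates 2 and 4 (304 and 174 CPM) inside the range of both other breeds. Droughtmaster replicate 6 (594 CPM) lay inside the range of the hybrids only. The 3 calgranulins together held between 0.0129% of counts in Red Angus replicate 2 and 0.180% in Droughtmaster replicate 5.

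HP likewise had its highest median in Droughtmaster. Its lowest, median and highest levels were 9.74, 25.6 and 108 CPM in Red Angus, 15.99, 43.6 and 89.0 CPM in the hybrids, and 48.7, 123 and 272 CPM in Droughtmaster. Red Angus fell into unequal levels, with replicates 1 and 6 at 108 and 99.6 CPM and the other 4 libraries between 9.74 and 37.8 CPM. The highest level was that of Droughtmaster replicate 2, which ranked only 11 of 18 for S100A12.

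LTF was scarcely detected. It held 62 counts over the 6 Red Angus libraries, 51 over the F1 and 146 over Droughtmaster, where replicate 3 had 63 counts, replicate 5 had 42, replicate 4 had 33 and the other 3 libraries had 2 or 3 each. Red Angus replicate 4 had 0 counts, which allows a level of up to 0.183 CPM (3 counts, counting error only), and the highest Red Angus level was 2.44 CPM, in replicate 1. The Droughtmaster mean of 2.14 ± 3.38 CPM (SD, n = 6) rested on replicate 3, at 8.84 CPM.

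**Figure D1:**
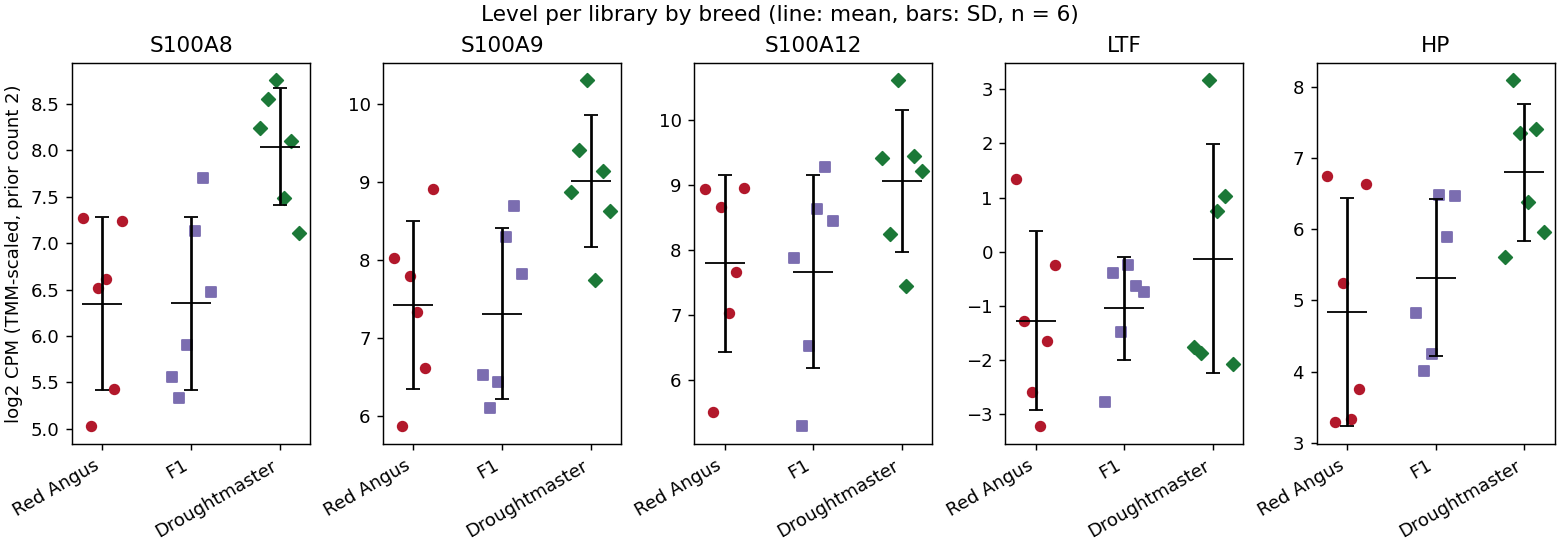
Levels of the 5 genes as log2 CPM (TMM-scaled, prior count 2) in each of the 18 libraries, by breed, with the mean as a line and bars of 1 SD (n = 6). For S100A8, 5 of 6 libraries from Droughtmaster lie above every Red Angus library, while for LTF the Droughtmaster libraries run from -2.08 to 3.16 log2 CPM, overlapping both other breeds.

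The first comparison asked whether the parental breeds differ. The estimate was higher in Droughtmaster than in Red Angus for 5 of 5 genes, where 49.7% of all tested features had a higher estimate, but no gene passed the test. The log2 fold change of S100A8 was 1.58 ± 0.445 (SE; 95% interval 0.653 to 2.51), a 2.99-fold difference, with an adjusted p of 0.0576 (edgeR's quasi-likelihood test, adjusted over all features by Benjamini-Hochberg). S100A9 was at 1.48 ± 0.53 (adjusted p = 0.125) and S100A12 at 1.18 ± 0.624 (adjusted p = 0.300). HP was at 1.52 ± 0.638 (adjusted p = 0.187) and LTF at 1.75 ± 1.02 (adjusted p = 0.352). The median over the 5 genes was 1.52, against -0.01 over all tested features. S100A8, S100A9, S100A12 and HP varied together between the same animals, as described below. The counts out of 5 in this and the later comparisons are therefore not of independent genes.

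By that test 0 of 5 genes were called, against 2.6% of all tested features, and 3 of 5 (S100A8, S100A9 and HP) had an unadjusted p under 0.05 with a higher level in Droughtmaster, against 9.33% of features. The call for S100A8 depended on the method. DESeq2's Wald test called S100A8 (adjusted p = 0.00732) and S100A9 (adjusted p = 0.0400), where it called 7.24% of features, and edgeR with upper quartile scaling called S100A8 (adjusted p = 0.0408; 2.84% of features). No gene of the 5 had every Droughtmaster library above every Red Angus library, a pattern that 0.817% of tested features showed. Without Droughtmaster replicate 3 the log2 fold change was 1.48 for S100A8 (adjusted p = 0.101), 1.18 for S100A9, 0.80 for S100A12 and 1.52 for HP. For LTF it was 0.49 without that library and 2.94 without Red Angus replicate 1 (adjusted p = 0.849 and 0.165).

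The second comparison set the hybrids against Red Angus, and the estimates of S100A8, S100A9, S100A12 and HP were close to 0. The log2 fold changes were 0.04 ± 0.435 for S100A8 (SE; 95% interval -0.87 to 0.943), -0.09 ± 0.519 for S100A9 (-1.18 to 0.989), -0.04 ± 0.616 for S100A12 (-1.32 to 1.25), 0.11 ± 0.624 for HP (-1.19 to 1.41) and -0.43 ± 1.03 for LTF (-2.59 to 1.72). No gene passed (adjusted p = 1.00 for each by edgeR's quasi-likelihood test), 0 of 5 had an unadjusted p under 0.05, and DESeq2's Wald test called 0 of 5 (0.00698% of features). Of all tested features, edgeR called 0% and 3.23% had an unadjusted p under 0.05. The intervals of S100A9, S100A12, HP and LTF include a 2-fold difference in at least 1 direction, and the interval of S100A8 ends short of 2-fold in both directions. With single libraries left out, the HP estimate ranged from -0.14 to 0.588, the highest being without Red Angus replicate 1.

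**Figure D2:**
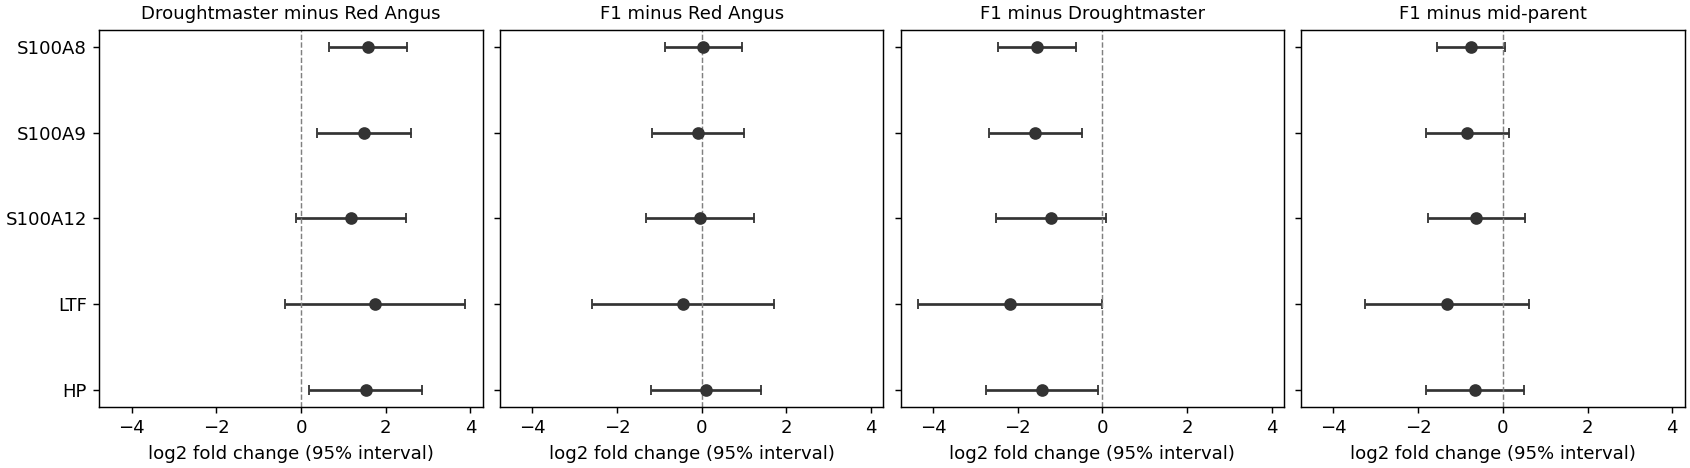
Log2 fold changes of the 5 genes in the 4 comparisons, with 95% intervals from edgeR's fit; the dashed line marks no difference. Against both Red Angus and the F1 the Droughtmaster estimates are higher for all 5 genes, and the F1 minus Red Angus estimates lie within 0.435 of 0.

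The third comparison placed the F1 beside Droughtmaster. It uses the same Droughtmaster libraries as the first, so the 2 sets of values are not independent. The F1 estimate was lower for 5 of 5 genes, where 50.6% of all tested features had a lower estimate, and again no gene passed. The log2 fold changes were -1.54 ± 0.445 for S100A8 (SE; adjusted p = 0.0882), -1.58 ± 0.532 for S100A9 (adjusted p = 0.151), -1.22 ± 0.625 for S100A12 (adjusted p = 0.400), -1.42 ± 0.636 for HP (adjusted p = 0.310) and -2.18 ± 1.04 for LTF (adjusted p = 0.348) by edgeR's quasi-likelihood test. For S100A8, 4 of 6 F1 libraries lay below every Droughtmaster library, and F1 replicates 4 and 5 (140 and 208 CPM) overlapped with them.

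In this comparison edgeR called 0 of 5 genes, against 1.18% of features, and 4 of 5 (all but S100A12) were lower at an unadjusted p under 0.05, against 8.9% of features. DESeq2's Wald test called S100A8 (adjusted p = 0.0121) and S100A9 (adjusted p = 0.0363), where it called 4.28% of features. None of the 5 had every Droughtmaster library above every F1 library, as 1.2% of features did. Without Droughtmaster replicate 3 the log2 fold changes were -1.39 for S100A8, -1.22 for S100A9, -0.79 for S100A12, -1.32 for HP and -0.84 for LTF.

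The mid-parent value is the average of the log fitted mean levels of both parental breeds. Relative to it, the F1 estimate was lower for each of the 5 genes (54.2% of all tested features were lower), and none passed the test. This estimate follows from the first and second comparisons, so it is not independent of them. It was -0.75 ± 0.389 for S100A8 (SE; adjusted p = 0.889), -0.84 ± 0.467 for S100A9 (adjusted p = 0.941), -0.63 ± 0.548 for S100A12, -0.66 ± 0.556 for HP and -1.31 ± 0.928 for LTF (adjusted p = 1 for these 3, edgeR's quasi-likelihood test). Without Droughtmaster replicate 3 the values were -0.65 for S100A8, -0.63 for S100A9, -0.39 for S100A12, -0.56 for HP and -0.60 for LTF. With any 1 library left out, S100A12 ranged from -0.95 to -0.39, HP from -0.90 to -0.40 and LTF from -1.53 to -0.60, all below 0. At an unadjusted p under 0.05 there were 0 of 5 genes by edgeR and 1 of 5 by DESeq2's Wald test, which called 0 of 5 after adjustment (0.356% of features). Of all features, edgeR called 0% here, and 4.04% were lower at an unadjusted p under 0.05.

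The levels of S100A8, S100A9, S100A12 and HP rose and fell together from animal to animal. Over the 18 libraries, log2 CPM of S100A8 and S100A9 had a Pearson r of 0.953 and a Spearman rho of 0.903 (permutation p = 1e-05 for both, the smallest that 100000 resamples can give; adjusted p = 5e-05 for r over the 15 relations computed). The values follow a single line across breeds: Red Angus replicate 2 and F1 replicate 2 had the lowest levels of both genes, and Droughtmaster replicates 3 and 2 the highest. Without the 2 libraries farthest from the median of S100A8 (Red Angus replicate 2 and F1 replicate 2) r was 0.932, and with the breed means removed it was 0.924. Within breeds r was 0.941 in Red Angus, 0.973 in the hybrids and 0.807 in Droughtmaster (n = 6 each, exact permutation p = 0.00556, 0.00278 and 0.0486).

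Among 9929 features (S100A9 and those outside the gene set with a mean of at least 5 CPM), S100A9 had the highest breed-centred r with S100A8, rank 1, and the reverse held as well. The median feature had an r of 0.06 with S100A8. HP and S100A12 ranked 23 and 26 by their r with S100A8, and 16 and 4 by their r with S100A9, counted in the same way. From the side of S100A12 many other features were closer: S100A9 ranked 150, S100A8 824 and HP 1279 of 9929 by their r with it.

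S100A12 varied with both. Its r was 0.885 with S100A9 (rho 0.864; permutation p = 1e-05 and 2e-05; adjusted p = 5e-05 for r) and 0.791 with S100A8 (rho 0.748; permutation p = 9e-05 and 6e-04; adjusted p = 0.00027 for r). Without the 2 libraries farthest from the median of the first gene these r values were 0.818 and 0.683, and with the breed means removed 0.866 and 0.747. Within Droughtmaster, r with S100A8 was 0.447 (exact permutation p = 0.385, n = 6), against 0.818 in Red Angus and 0.836 in the hybrids. The difference between breeds was not tested. Droughtmaster replicates 2 and 4 had the fewest S100A12 counts per S100A8 count of their breed, at 0.807 and 0.972, where the other 4 libraries had 2.24 to 4.29.

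HP, although known best as a liver product, varied with the calgranulins in these leukocyte libraries. Its r was 0.854 with S100A9 (rho 0.845; permutation p = 1e-05 for both), 0.835 with S100A8 (rho 0.783; permutation p = 2e-05 and 0.00027) and 0.741 with S100A12 (rho 0.662; permutation p = 0.00043 and 0.00376). The adjusted p of these r values was at most 0.00107. With the breed means removed the values were 0.794, 0.754 and 0.673, and without the 2 farthest libraries 0.819, 0.774 and 0.643. The relation of HP to S100A12 was 0.867 in Red Angus and 0.87 in the F1 (exact permutation p = 0.0194 and 0.0222, n = 6 each) and 0.03 in Droughtmaster (p = 0.958), where replicate 2 had the highest HP and the second lowest S100A12; the difference between breeds was not tested.

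LTF had lower correlations with the other genes, at counts of 63 or fewer. Its r was 0.462 with S100A8 and S100A9 and 0.386 with S100A12 (permutation p = 0.0524, 0.0525 and 0.113; rho 0.379, 0.329 and 0.317), and none passed after adjustment. Without Droughtmaster replicate 3 these values were 0.298, 0.243 and 0.170. Without the 2 libraries farthest from the median of the calgranulin they were 0.549, 0.249 and 0.557 (permutation p = 0.0271, 0.351 and 0.025). None of these passed after adjustment. With HP, r was 0.561 and rho 0.556 (permutation p = 0.015 and 0.0183; adjusted p = 0.0321 for r). With the breed means removed r was 0.490 and no longer passed (permutation p = 0.0394; adjusted p = 0.0776), and without the 2 farthest libraries it was 0.469 (permutation p = 0.0675). The call was also lost, with r of similar size, without Droughtmaster replicate 3 (0.506; adjusted p = 0.0741), Droughtmaster replicate 5 (0.520; 0.0654), Red Angus replicate 1 (0.538; 0.0506) or Red Angus replicate 4 (0.485; 0.102).

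**Figure D3:**
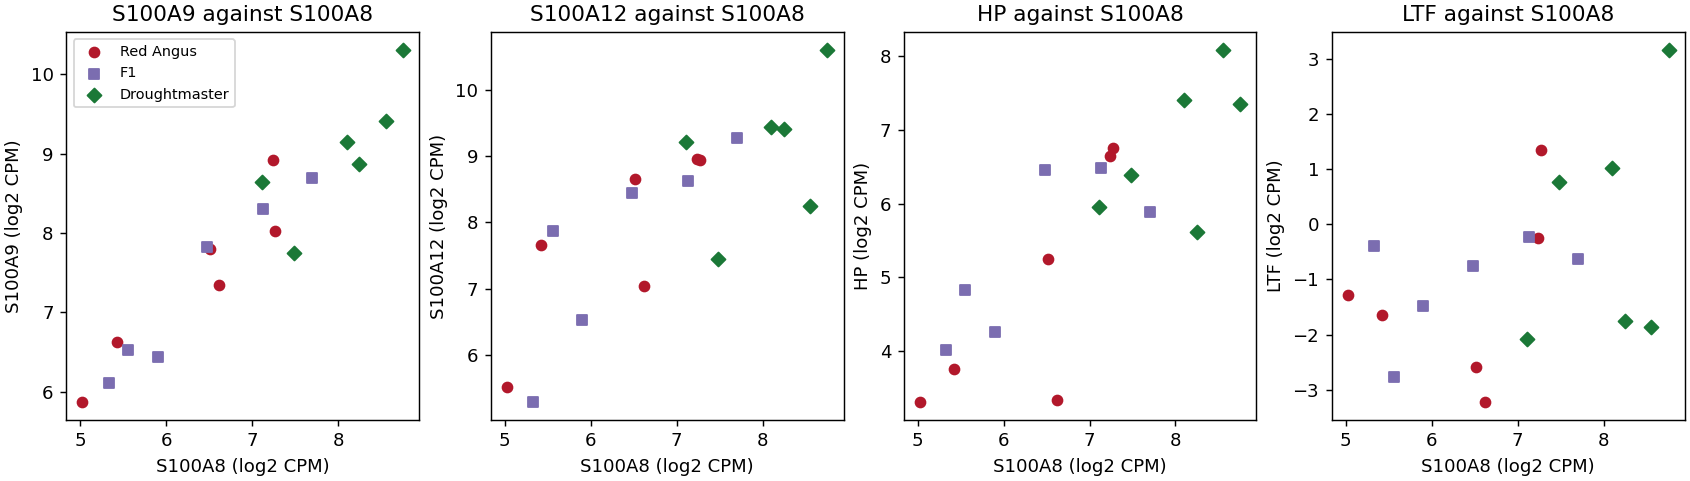
Levels (log2 CPM) of S100A9, S100A12, HP and LTF against S100A8 in the 18 libraries, with breeds marked by colour and shape. S100A9 follows S100A8 closely (r = 0.953), HP and S100A12 follow with more scatter (0.835 and 0.791), and LTF is scattered (0.462).

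By the spread between animals the genes also differ from one another. The SD of log2 CPM within breeds was 0.842 for S100A8, 1.01 for S100A9, 1.32 for S100A12, 1.25 for HP and 1.64 for LTF, against a median of 0.677 over all tested features. That places S100A8 above 68.6% of tested features, S100A9 above 81.9%, HP above 93.0% and S100A12 above 94.6%. LTF, above 98.2%, has few counts, so counting error adds to its spread.

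The features whose pattern was most like that of the 3 calgranulins are named by identifier only, since the files do not pair them with symbols. Among 9928 features outside the gene set that averaged 5 CPM or more, the breed-centred r with the mean of the 3 genes over 18 libraries was highest for ENSBTAG00000008792 (0.905; 15.3 to 205 CPM) and ENSBTAG00000006200 (0.897; 8.69 to 44.1 CPM). It was lowest for ENSBTAG00000001790 (-0.84; 77.6 to 176 CPM) and ENSBTAG00000022069 (-0.83; 11.8 to 34.7 CPM). An r above 0.8 was found for 0.534% of features, and the median was 0.02. ENSBTAG00000007115 was most like HP (0.847) and ENSBTAG00000005843 most like LTF (0.735). These values describe features picked for their likeness, with no test.

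The number of detected features, taken as those with at least 1 count, was next set against the 5 genes. It averaged 17127 ± 1240 in Red Angus, 17928 ± 1240 in the hybrids and 17912 ± 951 in Droughtmaster (SD, n = 6 each), and no pair of breeds passed a test of the difference (exact two-sided permutation p = 0.281 for F1 and 0.260 for Droughtmaster against Red Angus, 0.974 for Droughtmaster against F1). For S100A8 and S100A9 the r was 0.113 and 0.219 (rho -0.09 and 0.0898; permutation p = 0.655 and 0.381). S100A12 had an r of 0.469 (rho 0.224; permutation p = 0.0486 and 0.368; adjusted p = 0.0788 for r), which was 0.250 without F1 replicate 2 and Droughtmaster replicate 6, the 2 libraries farthest from the median. HP was at 0.314 and LTF at -0.09 (rho 0.123 and -0.17; permutation p = 0.201 and 0.722). None passed after adjustment over the 15 relations with TMM scaling and all libraries. With single libraries left out, the r of S100A12 was 0.301 to 0.584. It passed only without Droughtmaster replicate 3 (r = 0.584, adjusted p = 0.0281, permutation test). With CPM per library total, S100A12 did pass (r = 0.672, adjusted p = 0.00495, permutation test).

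With the breed means removed, the relation to detected features was -0.01 for S100A8, 0.174 for S100A9, 0.485 for S100A12, 0.237 for HP and -0.18 for LTF. Within Droughtmaster the r of S100A8 was -0.77 (exact permutation p = 0.0625, n = 6), against 0.415 in the hybrids and -0.03 in Red Angus. With detected features in the fit as a covariate, no gene of the 5 passed in any comparison. S100A8 was then at 1.61 ± 0.467 (SE; adjusted p = 0.0683) for Droughtmaster minus Red Angus, S100A9 at 1.43, S100A12 at 1.02, HP at 1.37 and LTF at 1.92 by edgeR's quasi-likelihood test. For F1 minus Red Angus the covariate moved S100A12 from -0.04 to -0.40, LTF from -0.43 to -0.016 and HP from 0.11 to -0.22, a change of sign. The SEs of these estimates with the covariate were 0.691 for S100A12, 1.09 for LTF and 0.736 for HP. For F1 minus Droughtmaster the values were -1.52 for S100A8, -1.63 for S100A9, -1.42 for S100A12, -1.59 for HP and -1.94 for LTF. Relative to the mid-parent value, S100A12 moved from -0.63 to -0.91 and HP from -0.66 to -0.90.

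Counting only features of at least 1 CPM gave a different picture between breeds. These numbered 13049 ± 165 in Droughtmaster, 12661 ± 116 in the hybrids and 12533 ± 172 in Red Angus (SD, n = 6 each). Droughtmaster exceeded each other breed (exact permutation p = 0.00216 for both, the smallest that 6 against 6 can give; adjusted p = 0.00325). Over the 18 libraries this count had an r of 0.627 with S100A8, 0.641 with S100A9, 0.522 with S100A12 and 0.629 with HP (permutation p = 0.00582, 0.00415, 0.0257 and 0.0055). With the breed means removed, a step added after these values were seen, r was 0.0987, 0.296, 0.321 and 0.303 (permutation p = 0.696, 0.230, 0.194 and 0.218). Each r was lower than in the pooled libraries and none passed, though all remained positive.

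**Figure D4:**
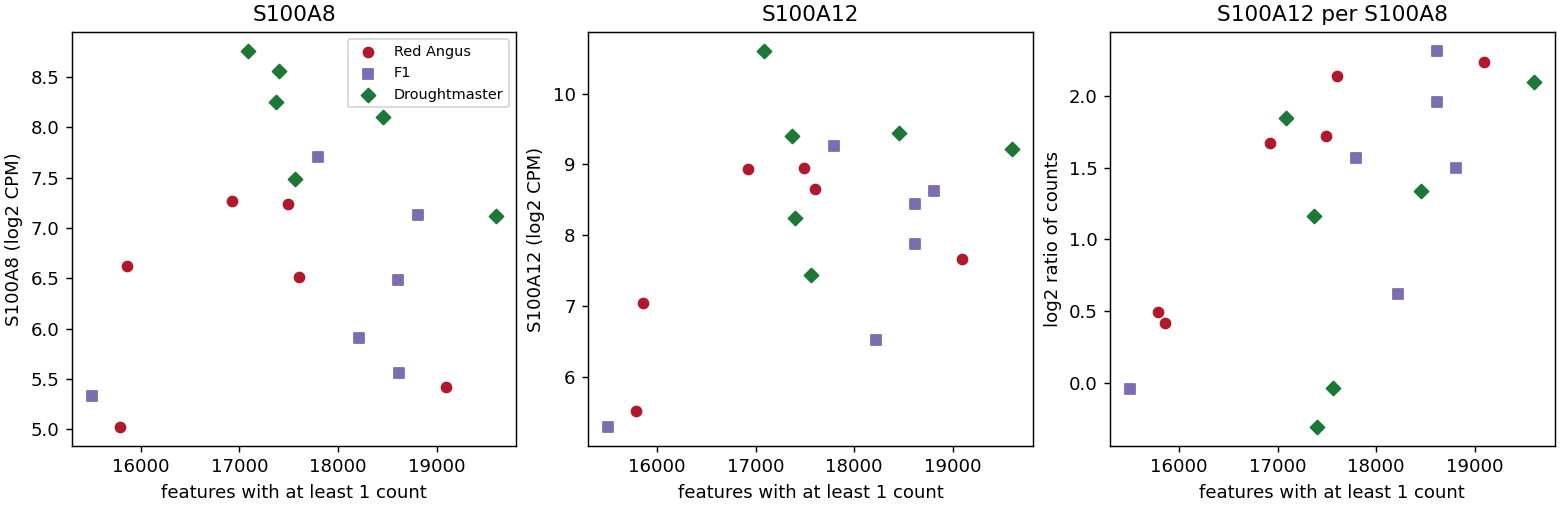
S100A8, S100A12 and the log2 ratio of S100A12 to S100A8 counts against the number of features with at least 1 count, in the 18 libraries by breed. The r of S100A8 is 0.113, which did not pass its test, and the ratio is low in the 3 libraries with the fewest features and spread between 0.807 and 4.97 (not log2) in the rest.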

How the data were processed

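Leukocyte RNA of 18 cattle (6 per breed) was measured. The deposited table holds raw read counts per feature, made by the authors; their processing notes name featureCounts 1.5.0-p3, HISAT2 2.0.5, DESeq2 1.16.1 and build ARS-UCD1.2, while strandedness is not given in the sources used here. Each column matched 1 sample title, and no 2 libraries were alike to within counting noise (chi-square per degree of freedom at least 53.5). Groups came from the breed label. Members and gene lists were chosen with earlier results of these data known. Named genes were the 5 members and the features most like them by breed-centred r. The other lists (granule genes, S100 family, acute phase, cell markers) matched 0 identifiers and were not tested.

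Features were filtered with filterByExpr, scaled by TMM and tested with edgeR 4.0.16 (quasi-likelihood, robust, two-sided) in R 4.3.3, all 18 libraries in 1 fit, Benjamini-Hochberg threshold 0.05. The method was also tried on simulated counts, drawn independently for each feature, with known changes added. That simulation had no genes co-varying within breeds and no library set apart by a dominant feature. Log2 CPM used a prior count of 2. SEs came from the F statistic, and 95% intervals from the SE. Correlations used permutation tests (100000 resamples; exact for n = 6). Alternatives were DESeq2 1.42.0, other scalings, no filter, groups compared only, a covariate and single libraries left out. A further alternative left out Droughtmaster replicates 1 and 2 together. Their sample names have 3 digits, as in the other breeds, while the rest of the Droughtmaster names are longer. The labels do not say what the names mean. Levels were not compared between genes, since no transcript lengths were used. Reads of near-identical or overlapping genes cannot be told apart.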

Additional observations from a re-analysis of the deposited data

Results flagged for a closer look

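F1 replicate 2 had 15507 features with at least 1 count, far below the other 5 F1 libraries, which had 17800 to 18811. It was the only library to stand apart in this way among 30 groups of values examined (5 genes, 4 ratios and the number of features in 3 breeds). Chance alone gives about 1 in 20, so 1 among 30 is no more than chance would give. The same library had the lowest S100A12 of all 18 (38.9 CPM) and ranked 17 of 18 for S100A8 and S100A9. Without it, the r of detected features with S100A12 was 0.301 (adjusted p = 0.325, permutation test).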

How the results depend on the processing

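Breed estimates of the 5 genes against Droughtmaster kept their direction under each alternative run; LTF did not pass the filter when only the groups compared were fitted and has no value there. S100A8 for Droughtmaster minus Red Angus became significant with upper quartile scaling (1.69) and with DESeq2's Wald test (1.60; S100A9 1.51), and with that test S100A8 (-1.57) and S100A9 (-1.60) did for F1 minus Droughtmaster. Without the Droughtmaster samples with 3-digit names, S100A8 was 1.47 (adjusted p = 0.108) and LTF 2.37 (0.195) against Red Angus, by edgeR's quasi-likelihood test. For F1 minus Droughtmaster S100A8 was then -1.41 (adjusted p = 0.163, same test). With single libraries left out S100A8 ranged from 1.40 to 1.77 and from -1.87 to -1.39, passing without F1 replicate 2 (first comparison) and without F1 replicate 5 (both). For F1 minus Red Angus, S100A12 was 0.0508 with upper quartile scaling and HP -0.22 with the covariate; single libraries gave ranges of -0.27 to 0.227 (S100A8), -0.37 to 0.323 (S100A9), -0.34 to 0.212 (S100A12), -0.67 to 0.753 (LTF) and -0.14 to 0.588 (HP).

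Counts of called features for Droughtmaster minus Red Angus were 376 in the reported fit, 1037 with DESeq2, 236 with no filter, 56 with only the groups compared and 143 to 1407 with single libraries left out. For F1 minus Droughtmaster they were 171, 613 with DESeq2, 449 with the covariate and 65 to 335. For F1 minus Red Angus DESeq2 called 1, and for F1 minus the mid-parent DESeq2 called 51 and the covariate fit 1, against 0. With upper quartile scaling, 283 of the 410 calls between the parents were higher in Droughtmaster, against 217 of 376.

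The r of LTF with HP was 0.490 with the breed means removed, 0.471 per library total and 0.469 without the 2 farthest libraries. With single libraries left out it was 0.485 to 0.700. LTF reached 0.298 to 0.565 with S100A8 and 0.243 to 0.541 with S100A9, passing without Droughtmaster replicate 2. For detected features, S100A8 had an r of -0.0065 with the breed means removed (-0.0536 when also thinned) and -0.0778 without the 2 farthest libraries. Its r was 0.627 with features of at least 1 CPM and -0.0654 to 0.240 with single libraries left out. S100A9 (0.641), S100A12 (0.522) and HP (0.629) also passed with features of at least 1 CPM. Per library total S100A12 was 0.672 and passed (adjusted p = 0.00495, permutation test). On that scale S100A8 (0.359), S100A9 (0.452) and HP (0.490) did not pass. With single libraries left out S100A12 ranged from 0.301 to 0.584, passing without Droughtmaster replicate 3. LTF was 0.0094 per library total, 0.0199 without the 2 farthest libraries and 0.195 with features of at least 1 CPM, and the ratio of S100A12 to S100A9 -0.0989 with the last. For Droughtmaster minus F1, the difference in detected features was -15.3, 162 after thinning, 388 with features of at least 1 CPM and -499 to 161 with single libraries left out; for Droughtmaster minus Red Angus it was 785 and 515 with features of at least 1 CPM. The cause was not tested in these cases. No paired analysis was possible because the labels give no replicate numbers that groups share. Low counts limit LTF.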

Other observations

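The ratio of S100A12 to S100A8 counts within a library does not depend on library scaling, and was examined after the values were seen. It ranged from 0.807 in Droughtmaster replicate 2 to 4.97 in F1 replicate 1, with medians of 3.24 (Red Angus), 2.89 (F1) and 2.38 (Droughtmaster). No pair of breeds passed a test of it (exact permutation p = 0.420 between the parental breeds, 0.578 between Droughtmaster and F1 and 0.755 between F1 and Red Angus; adjusted p = 0.906 for each over 12 tests of 4 ratios). The ratio of S100A9 to S100A8 was steadier, from 1.202 to 3.199, with an SD within breeds of 0.399 log2 against 0.892 for the first ratio.

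The log2 ratio of S100A12 to S100A8 was higher in libraries with more detected features. Over 18 libraries r was 0.615 and rho 0.610 (permutation p = 0.00685 and 0.0087; adjusted p = 0.0196 for r over 4 ratios). It was 0.725 with the breed means removed (permutation p = 0.00053), 0.912 among Red Angus, 0.8 among F1 and 0.488 among Droughtmaster libraries (exact permutation p = 0.00278, 0.0486 and 0.315, n = 6 each). Without the 2 libraries farthest from the median r was 0.493 (permutation p = 0.0539), so the relation rests in part on those. With libraries thinned to 11639027 counts it was 0.517 (adjusted p = 0.0810), without F1 replicate 2 0.535 (adjusted p = 0.0892), and with features of at least 1 CPM 0.02 (adjusted p = 0.941).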
